A study of Homo sapiens with 12 samples.

Results

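The histone genes of MiaPaca2 cells were described here, taken as the GENCODE v44 protein-coding genes with a systematic H1, H2AC, H2BC, H3C or H4C symbol. The rule found 73 genes, of which 39 were listed by their identifier in the count files out of 63677 identifiers, and the 34 others were not analysed here. MiaPaca2, an established cell line from a human pancreatic cancer labelled wild type, was treated for 24 h in 4 groups with 3 libraries each. Unprimed cells received DMSO (Con) or the Vitamin D analog calcipotriol at 1 µM (CPT). Primed cells received glyceryl triacetate, an acetate donor for histone acetylation, at 2 mM together with 1 µM 5-Aza, an inhibitor of DNA methylation, without (GTA+5-Aza) or with 1 µM CPT (CPT+GTA+5-Aza). No group received GTA or 5-Aza alone, so the effects of the 2 agents cannot be told apart.

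Histones H2A, H2B, H3 and H4 form the protein core around which DNA is wrapped, and H1 binds the linker DNA between cores. Most of these genes are replication-dependent: they stand in clusters, are transcribed in S phase to package new DNA, and give mRNAs that end in a short hairpin, the stem-loop, in place of a poly(A) tail. The stem-loop is bound by SLBP, and the histone mRNA is degraded when DNA synthesis stops. H1-10 is a replication-independent linker histone gene with an ordinary polyadenylated mRNA.

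The stem-loop divided the members. It was found after the stop codon in a GENCODE v44 transcript of 69 of the 73 members (94.5%) and of 35 of the 39 listed ones. The members without it included H1-10 and the germline genes H1-7 and H1-8. The search used the 16-base form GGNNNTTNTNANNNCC on the transcript strand, which 8.446% of 19973 other protein-coding genes also held somewhere in a transcript. Its commonest spelling, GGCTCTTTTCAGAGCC, was held by 40 members (54.8%) and by 2 of those other genes (0.01%). As examples of the element, the stem-loops of 7 members are shown with the 16 bases in capitals, from GENCODE v44 transcripts. They are the members with a stem-loop that passed a test of priming. Since they were taken from the stem-loop members, their having it is no result about priming.
H2AC11: caacGGCTCTTTTCAGGGCCaccca
H2AC25: taaaGGCTCTTTTCAGAGCCacctac
H2BC4: caaaGGCTCTTTTAAGAGCCaccca
H2BC12: caaaGGCTCTTTTAAGAGCCactta
H2BC15: caaaGGCTCTTTTCAGAGCCactca
H4C16: aaaaGGCCCTTTTCAGGGCCcccaaa
H1-2: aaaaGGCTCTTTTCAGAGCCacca
The hairpin began 22 to 67 bases after the stop codon, with a median of 35. H2AC25 and H4C16 also have annotated transcripts that run on for 1110 and 1510 bases past the hairpin. H2BC4 and H2BC15 have 3 annotated transcripts each, of which 2 lack the hairpin or run at least 100 bases past it. Some transcript of this kind is annotated for 15 of the 35 listed stem-loop members.

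The members also share promoter words. In the 250 bases before the start sites that RefSeq gives for 67 members (72 starts, GRCh38.p14), CCAAT was present on either strand in 83.3%, against 32% of all 35116 promoters. The TATA word TATAAA was present in 63.9% against 10.7%, and TTTGCAT, part of the octamer bound by POU2F1, in 37.5% against 3.9%. CCAAT was held by 100% of the H2A, H2B and H3 promoters and by 23.1% of the H4 promoters. TTTGCAT was held by 68.8% of the H2A and 75% of the H2B promoters and by 0% of the H1 and H4 promoters. The promoters of H2AC11 and H2BC12, both lower in primed cells, and of H1-10, which was higher, are shown with these words in capitals on either strand. A word and its reverse can overlap and then form 1 run of capitals.
H2AC11, chr6:27132793-27133042, plus strand: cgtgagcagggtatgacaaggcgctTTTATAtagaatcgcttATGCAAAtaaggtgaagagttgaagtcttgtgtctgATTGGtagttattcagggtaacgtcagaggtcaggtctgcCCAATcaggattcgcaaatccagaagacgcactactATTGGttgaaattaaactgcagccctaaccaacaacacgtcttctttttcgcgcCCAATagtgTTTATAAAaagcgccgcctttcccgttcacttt
H2BC12, chr6:27146859-27147108, minus strand: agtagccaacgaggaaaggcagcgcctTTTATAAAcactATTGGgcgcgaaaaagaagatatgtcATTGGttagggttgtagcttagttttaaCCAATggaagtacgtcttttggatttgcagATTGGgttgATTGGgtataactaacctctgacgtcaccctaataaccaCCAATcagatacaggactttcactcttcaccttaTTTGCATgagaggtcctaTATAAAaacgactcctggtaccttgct
H1-10, chr3:129316287-129316536, minus strand: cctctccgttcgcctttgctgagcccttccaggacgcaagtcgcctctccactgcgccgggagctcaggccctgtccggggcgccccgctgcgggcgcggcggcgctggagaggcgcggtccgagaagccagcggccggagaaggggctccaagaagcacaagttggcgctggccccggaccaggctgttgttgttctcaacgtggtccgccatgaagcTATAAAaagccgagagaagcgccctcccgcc
The 2 clustered genes hold all 3 words, and the H1-10 window holds TATAAA alone of them. These 3 windows are examples and do not stand for the direction of change. Of other members that fell with priming, H2BC4 holds all 3 words, whereas H2AC25, H2BC15 and H1-2 hold CCAAT alone of them. H2AC6, H2AC20, H2BC11 and H2BC21 hold all 3 and did not pass a test of priming. A matched word is a description of these letters and not a measured binding site.

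The counts were small for most members. Library totals ran from 16162490 to 21224665 counts, and the 39 listed members together held 0.0402% of all counts (91178 counts). The 35 stem-loop members held 9.95% of these. In a single library, 3 counts, the most that a count of 0 allows, equal 0.143 to 0.184 CPM (TMM-scaled CPM, the share of a gene in a library's counts brought to a common library size), and such limits cover counting error only. Of the 39 listed members, 8 had 0 counts in every library, and 21 passed the filter on low counts and could be tested among 17123 genes. The tested members were 6 of 10 listed H1 genes, 5 of 8 H2A, 7 of 10 H2B, 1 of 5 H3 and 2 of 6 H4 genes. Noncoding RNAs known to lack a poly(A) tail were scarce too: 6 of 12 such genes were listed, and their summed level was 0.44 to 2.82 CPM in all libraries. How the libraries were selected for poly(A) is not given in the sources used here, and its part in the low levels was not tested.

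Per kilobase of exon, H1-10 had the highest mean level over the 12 libraries, 137 CPM per kb. The highest stem-loop member was H2BC12 at 19.7 CPM per kb, then H2AC20 at 9.22, H1-2 at 5.58, H2AC11 at 4.69 and H2AC25 at 3.57. Of the line's markers, KRT8 and KRT18, keratins of simple epithelia, had group means of 1540 to 1690 and 732 to 837 CPM, whereas the epithelial adhesion genes EPCAM and CDH1 were at most at a mean of 0.15 CPM. Of 14 markers of other cell types, 6 were at 0 in every library, and their sum (690 to 945 CPM over the libraries) was almost wholly COL1A2, which had a mean of 729 to 897 CPM in the 4 groups. These markers moved with priming in the averaged comparison: of 3 tested, COL1A2 rose by 0.17 and COL1A1, from means of 0.135 CPM in Con and 0.126 in CPT to 1.7 in GTA+5-Aza and 1.44 in CPT+GTA+5-Aza, by 3.54 on the log2 scale (adjusted p = 0.000628 and 2.87e-06 in edgeR's test). Of the 5 tested markers of the line, 4 rose, with KRT7 at 1.87, and VIM fell at -0.18 (adjusted p = 0.00069 and 7.4e-06 in edgeR's test). Their part in the histone values was not tested. Mitochondrial counts were 3.86 to 4.85% of a library, with the lowest share in CPT replicate 2.

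Histone genes with a stem-loop summed to a lower level in primed cells, whereas H1-10, an abundant gene without one, rose. The 35 stem-loop members summed to 40.5, 44.8 and 47.8 CPM in the Con libraries and to 51.4, 57.4 and 45.1 CPM in CPT. In GTA+5-Aza the same sum was 32, 31.3 and 30.5 CPM, and in CPT+GTA+5-Aza it was 30.8, 33.7 and 31.2 CPM. All 6 primed libraries thus lay below all 6 unprimed ones. The group means (± SD, n = 3) were 44.4 ± 3.65 in Con, 51.3 ± 6.13 in CPT, 31.2 ± 0.734 in GTA+5-Aza and 31.9 ± 1.58 in CPT+GTA+5-Aza. The ratio of means was 0.704 for GTA+5-Aza to Con and 0.622 for CPT+GTA+5-Aza to CPT, which share no library, and 1.16 for CPT to Con. These sums rest on 510 to 1167 counts per library and are given without a test. In bulk RNA, fewer cells in S phase and less histone mRNA per cell cannot be told apart. The sums also cover only the histone mRNA that these libraries captured, and how they were selected for poly(A) is not given.

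**Figure D1:**
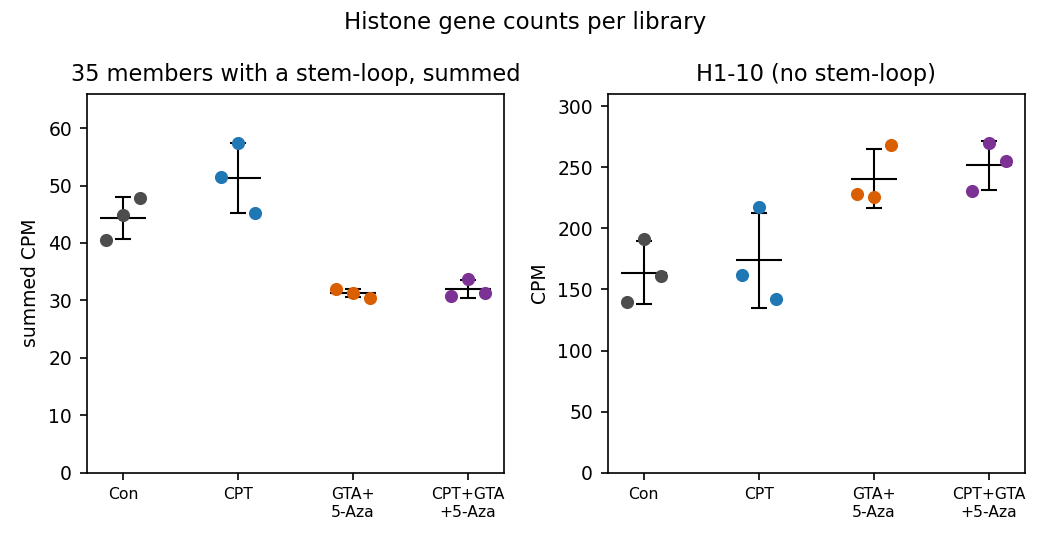
CPM per library (points; linear axis from 0) with the group mean and SD (lines) in the 4 groups of 3 libraries, for the sum of the 35 stem-loop members and for H1-10. The sum is 30.5 to 33.7 CPM in primed and 40.5 to 57.4 CPM in unprimed libraries, and H1-10 lies at 226 CPM or above in primed and at 217 CPM or below in unprimed libraries.

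The lower sum did not rest on the most counted genes. Without H2BC12, the member with the most counts among them, the primed to unprimed ratio of the remaining 34 was 0.656, and without H2BC12 and H2AC25 it was 0.656 as well, against 0.66 for all 35. The 28 stem-loop members that were called in no comparison summed to 12.8 to 20.7 CPM in unprimed and 10.2 to 14.9 CPM in primed libraries, a ratio of 0.744 with overlapping ranges. By locus, the sum over the 23 listed genes of the large cluster on 6p22 was 27.8 to 34.6 CPM in unprimed and 17.3 to 22.3 CPM in primed libraries (ratio 0.647). The 9 genes of 1q21 had a ratio of 0.753 and the 2 of 1q42 a ratio of 0.67, and their ranges overlapped. The 20 members whose every transcript ends at the hairpin had a ratio of 0.695, and the 15 with other transcripts 0.601. Near-identical copies can share reads: 12 members with under 90% of unique windows of 150 bases had a ratio of 0.53, and the other 23 a ratio of 0.67. Over the 28 stem-loop members with any count, 23 had a lower mean CPM in primed libraries (82.1%), as had 47.3% of the 32000 genes with any count.

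By class, H2A genes summed to a mean of 17.0 CPM in Con, 20.9 in CPT, 12.1 in GTA+5-Aza and 13.1 in CPT+GTA+5-Aza. H2B genes summed to 17.3, 18.5, 11.3 and 11.5 CPM in the same order. In H2B no primed library (10.0 to 13.2 CPM) reached an unprimed one (15.6 to 19.9 CPM), whereas the H2A ranges met (10.7 to 15.3 against 14.9 to 23.4 CPM). The listed H3 and H4 genes had low sums, with class means of 1.51 and 1.99 CPM in Con and 0.705 and 0.864 CPM in CPT+GTA+5-Aza. These sums cover only the listed genes: 8 of 17 H2A, 10 of 18 H2B, 5 of 13 H3 and 6 of 15 H4 genes. They do not give the level of a whole class.

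For single genes, the comparison of all primed with all unprimed libraries, averaged over CPT, had the most replicates. In edgeR's quasi-likelihood test, 1 of the 21 tested members rose and 7 fell at a Benjamini-Hochberg adjusted p under 0.05, whereas 16.8% of all 17123 tested genes rose and 14% fell. The median log2 fold change was -0.57 over the 21 members and 0.0059 over all genes, and 17 of the 21 estimates were negative. The study's methods name a fold change of 1.5 and a P value of 0.05. Read here as an estimate over 1.5-fold with an unadjusted P below 0.05, which is not the only reading, 0 members were higher and 6 lower, beside 7.81% and 1.79% of all genes. The filter keeps a gene by its level in the groups where it is highest, so the tested members describe themselves and not the 18 listed genes that did not pass. Without CPT+GTA+5-Aza replicate 1 the members that fell were 4 and not 7.

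**Figure D2:**
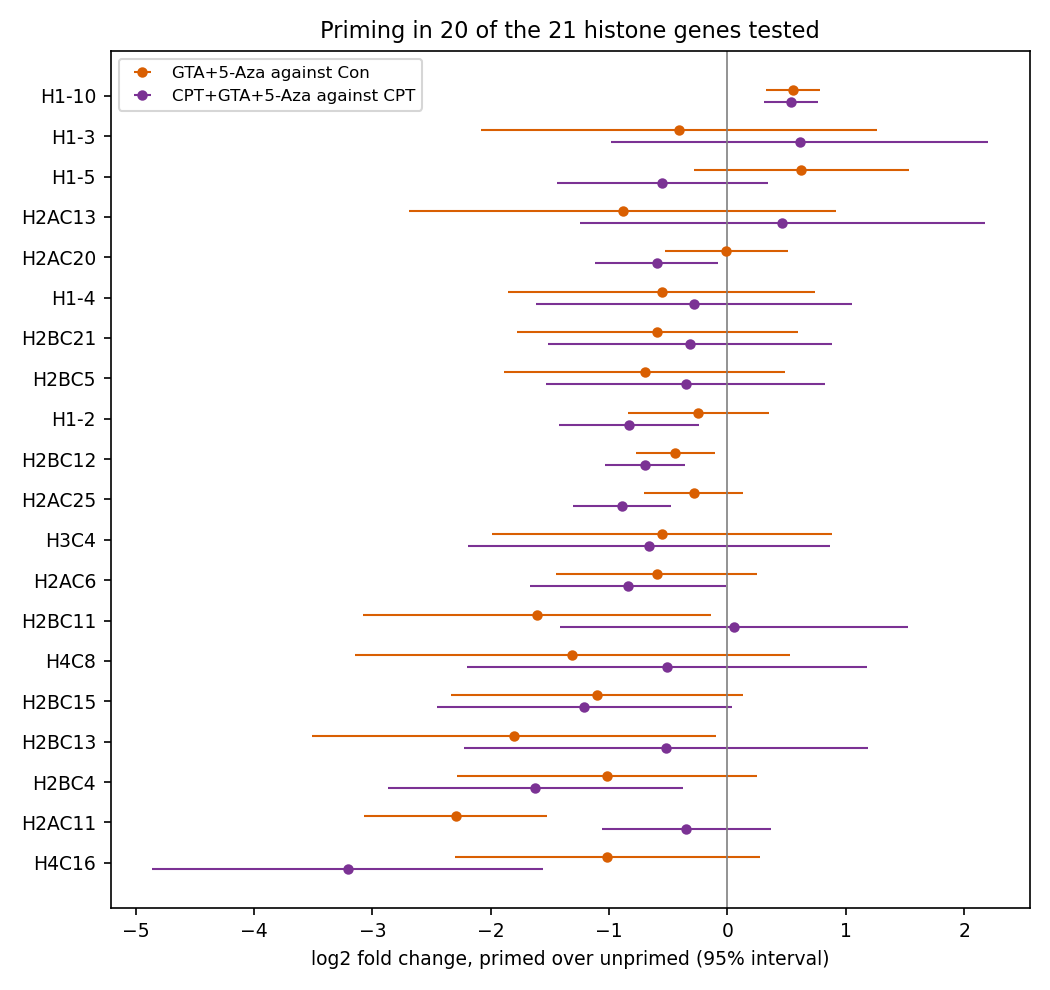
Log2 fold change (points) with 95% intervals (lines) of 20 of the 21 tested histone genes for GTA+5-Aza against Con and for CPT+GTA+5-Aza against CPT, ordered by the averaged comparison. H1-10 stands above 0 in both (0.56 and 0.53), H2BC12 is negative in both (-0.44 and -0.70), and most intervals of scarce genes cross 0.

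H1-10 (ENSG00000184897, chromosome 3 from 129314771 to 129316286), a replication-independent linker histone, was the member that rose. It had 139, 191 and 161 CPM in Con, 162, 217 and 142 in CPT, 228, 226 and 268 in GTA+5-Aza, and 230, 270 and 255 in CPT+GTA+5-Aza. Every primed library was above every unprimed one. Averaged over CPT, the log2 fold change was 0.54 (SE 0.08), a 1.46-fold rise with an adjusted p of 5.32e-06 in edgeR's test. It was 0.56 in GTA+5-Aza against Con (SE 0.11, adjusted p = 0.0008 in edgeR's test) and 0.53 in CPT+GTA+5-Aza against CPT (SE 0.11, adjusted p = 0.00123 in edgeR's test). The longest transcript of H1-10 has 68.6% GC, and with each library's trend over GC content removed the averaged value was 0.35, still called (adjusted p = 6.54e-07 in edgeR's test). An antisense gene, H1-10-AS1, shares exon bases with it and rose too, by a log2 fold change of 0.63 (SE 0.07, adjusted p = 4.03e-08 in edgeR's test). H1-10-AS1 had 69.6 to 88.5 CPM in unprimed and 108 to 141 CPM in primed libraries. The strand setting of the counting is not given in the sources used here. Reads from the exon bases that H1-10 and H1-10-AS1 share therefore cannot be told apart. By the measure of unique windows used above, 92.8% of the windows of H1-10 were unique. The part of shared reads in the rise of H1-10 was not tested.

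The clustered linker histones were far scarcer than H1-10. H1-2 (ENSG00000187837), the main one here, had 2.47, 5.53 and 4.23 CPM in Con, 5.83, 7.43 and 3.6 in CPT, 4.11, 3.46 and 2.77 in GTA+5-Aza, and 3.22, 2.61 and 3.67 in CPT+GTA+5-Aza. It fell at a log2 fold change of -0.54 (SE 0.20, adjusted p = 0.0464 in edgeR's test), with groups that overlapped. This call was lost without any of 8 single libraries, with an adjusted p in edgeR's test of 0.165 without Con replicate 2, 0.0783 without Con replicate 3, 0.0769 without CPT replicate 1, 0.117 without CPT replicate 2, 0.0688 without GTA+5-Aza replicate 2, 0.112 without GTA+5-Aza replicate 3, 0.073 without CPT+GTA+5-Aza replicate 1 and 0.111 without CPT+GTA+5-Aza replicate 2. It was also lost with library size alone as the scaling (0.0691), with the replicate number as a block (0.0629) and in DESeq2 (0.0683). H1-3, H1-4 and H1-5, each at a group mean of at most 1.81 CPM, had averaged values of 0.10, -0.42 and 0.04 that missed the threshold (adjusted p = 0.918, 0.532 and 0.946 in edgeR's test).

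Among the core histones, H2AC11 (ENSG00000196787, chromosome 6 from 27133043 to 27133535), an H2A gene of the 6p22 cluster, had the smallest adjusted p in the averaged comparison. It stood at 3.94, 3.24 and 4.23 CPM in Con, 2.8, 2.41 and 2.62 in CPT, 0.695, 0.501 and 1.13 in GTA+5-Aza, and 1.06, 2.55 and 2.57 in CPT+GTA+5-Aza. All 3 GTA+5-Aza libraries lay below every unprimed one, whereas 2 of the CPT+GTA+5-Aza libraries lay within the range of CPT. Priming without CPT lowered it at a log2 fold change of -2.30 (SE 0.38, adjusted p = 9.2e-05 by edgeR), and priming with CPT gave -0.35 (SE 0.35, adjusted p = 0.561 by edgeR). These effects differed by 1.95 (SE 0.51), which passed an unadjusted P of 0.05 in edgeR's test and not the adjustment over all genes (adjusted p = 1). Averaged over CPT, H2AC11 fell at -1.32 (SE 0.26, adjusted p = 0.000235 in edgeR's test).

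H2AC25 (ENSG00000181218, chromosome 1 from 228434777 to 228457873), an H2A gene of the small 1q42 cluster, had 5.36, 7.48 and 6.9 CPM in Con, 8.69, 10.6 and 8.79 in CPT, 4.17, 5.31 and 6.77 in GTA+5-Aza, and 4.65, 5.9 and 4.59 in CPT+GTA+5-Aza. The CPT libraries were the 3 highest, and GTA+5-Aza overlapped Con. It fell in CPT+GTA+5-Aza against CPT at a log2 fold change of -0.89 (SE 0.20, adjusted p = 0.00278 in edgeR's test) and was not called in GTA+5-Aza against Con at -0.29 (SE 0.20, adjusted p = 0.381 in edgeR's test). The averaged value was -0.59 (SE 0.14, adjusted p = 0.00232 in edgeR's test). H2AC6 had 0.736 to 3.27 CPM in unprimed and 1.07 to 1.65 CPM in primed libraries, and its averaged value of -0.72 missed the threshold (adjusted p = 0.0606 in edgeR's test), though it was called without Con replicate 1 or without CPT replicate 2. H2AC20 of 1q21 stood at -0.30 (adjusted p = 0.212 in edgeR's test) and reached 0.034 without CPT replicate 3.

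H2BC12 (ENSG00000197903, chromosome 6 from 27146361 to 27146855), the most abundant core histone gene here, had 12.5, 9.63 and 10.7 CPM in Con, 11.8, 11.8 and 13.5 in CPT, 6.84, 9.82 and 7.45 in GTA+5-Aza, and 7.66, 8.0 and 7.16 in CPT+GTA+5-Aza. GTA+5-Aza replicate 2 was above Con replicate 2, and the other 5 primed libraries lay below all unprimed ones. It fell at an averaged log2 fold change of -0.57 (SE 0.12, adjusted p = 0.000397 in edgeR's test). The value was -0.70 in CPT+GTA+5-Aza against CPT (SE 0.16, adjusted p = 0.00373 in edgeR's test) and -0.44 in GTA+5-Aza against Con (SE 0.16, adjusted p = 0.0617 in edgeR's test).

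H2BC4 (ENSG00000180596) and H2BC15 (ENSG00000233822), also H2B genes of 6p22, stood near 1 CPM. H2BC4 had 0.736, 0.905 and 0.972 CPM in Con, 0.44, 2.02 and 1.8 in CPT, 0.641, 0.25 and 0.395 in GTA+5-Aza, and 0.317, 0.454 and 0.612 in CPT+GTA+5-Aza. CPT replicate 1 was the exception among the unprimed libraries and lay within the primed range. The averaged log2 fold change was -1.32 (SE 0.43, adjusted p = 0.0206 in edgeR's test). This call was lost without CPT replicate 2 (adjusted p = 0.0652 in edgeR's test), CPT replicate 3 (0.0558), GTA+5-Aza replicate 2 (0.0573) or CPT+GTA+5-Aza replicate 1 (0.0562). Exons of HFE, an iron regulator, overlap those annotated for H2BC4, and HFE stood at -0.16 (adjusted p = 0.0922 in edgeR's test).

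H2BC15 had 0.999, 0.715 and 2.09 CPM in Con, 1.32, 1.13 and 1.53 in CPT, 0.16, 0.701 and 0.903 in GTA+5-Aza, and 0.687, 0.227 and 0.796 in CPT+GTA+5-Aza. Con replicate 2 lay within the primed range. It fell at -1.16 (SE 0.43, adjusted p = 0.04 in edgeR's test). For H2BC15 the adjusted p by edgeR was 0.17 without Con replicate 3, 0.0608 without CPT replicate 1, 0.0651 without CPT replicate 3, 0.097 without GTA+5-Aza replicate 1, 0.0506 without CPT+GTA+5-Aza replicate 1 and 0.103 without CPT+GTA+5-Aza replicate 2, so that 6 single libraries each decided the call, and it was 0.0528 with the GC trend removed. The 4 other tested H2B genes, H2BC5, H2BC11, H2BC13 and H2BC21, had averaged values of -0.53, -0.78, -1.16 and -0.45 that missed the threshold. Without GTA+5-Aza replicate 1, H2BC21 reached an adjusted p of 0.0494 by edgeR.

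H4C16 (ENSG00000197837, chromosome 12 from 14767999 to 14771131) is an H4 gene that lies outside the clusters of the other stem-loop members. Its counts were 13, 32 and 22 in Con, 15, 28 and 10 in CPT, 8, 6 and 16 in GTA+5-Aza, and 3, 2 and 0 in CPT+GTA+5-Aza. The last group was the lowest, and its highest library, at 3 counts, lay below the 6 counts of the lowest library elsewhere. Scaled to library size, its 5 counts against 53 in CPT gave a ratio of 0.101 (95% counting interval 0.0316 to 0.252). GTA+5-Aza against Con, 30 against 67 counts, gave 0.481 (0.302 to 0.75). CPT+GTA+5-Aza against CPT had an adjusted p of 0.0061 by edgeR and the averaged comparison 0.00226, and the fitted log2 values of -3.21 (SE 0.80) and -2.11 (SE 0.51) depend on the prior count. H4C16 lost the call against CPT when the fit held only those 2 groups. The other tested H4 gene, H4C8, and the 1 tested H3 gene, H3C4, had averaged values of -0.91 and -0.61 (adjusted p = 0.279 and 0.406 in edgeR's test). Of the scarcer members that were not tested, H3C13 had 0 to 0.787 CPM in unprimed and 0 to 0.214 in primed libraries, H3C12 0 to 0.632 and 0 to 0.317, and H4C3 0 to 0.275 and 0 to 0.427. These ranges overlapped and rest on few counts. H3C13 passed the filter and was called lower in the averaged comparison without Con replicate 1, CPT replicate 1, CPT replicate 3, GTA+5-Aza replicate 1 or CPT+GTA+5-Aza replicate 2.

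**Figure D3:**
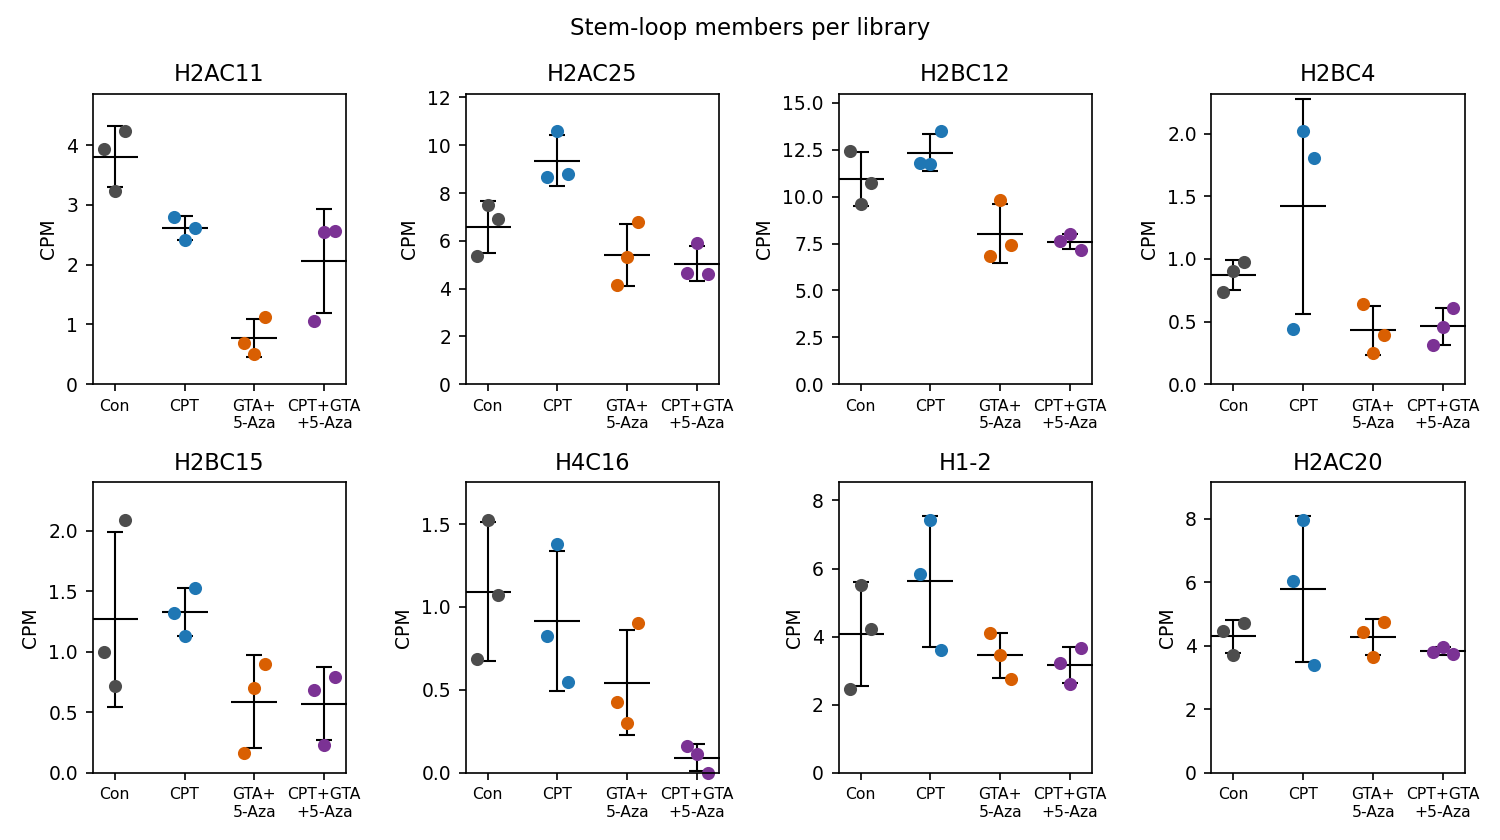
CPM per library (points; linear axes from 0, 1 panel per gene, scales differ) with group mean and SD (lines) in the 4 groups for 8 stem-loop members. The panels show the low GTA+5-Aza level of H2AC11 (0.501 to 1.13 CPM), the high CPT level of H2AC25 (8.69 to 10.6 CPM) and the near absence of H4C16 in CPT+GTA+5-Aza (0 to 0.158 CPM).

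Taken separately, the pairs of groups called fewer members. In GTA+5-Aza against Con, 1 member rose (H1-10) and 1 fell (H2AC11), beside 9.95% and 7.53% of all genes, and the median of the 21 members was -0.59. At over 1.5-fold and an unadjusted P below 0.05, 0 were higher and 3 lower there, beside 6.82% and 1.62% of all genes. In CPT+GTA+5-Aza against CPT, 1 rose (H1-10) and 4 fell (H2AC25, H2BC12, H4C16 and H1-2), beside 9.57% and 7.39% of all genes, with a member median of -0.52. At over 1.5-fold and an unadjusted P below 0.05, 0 were higher and 7 lower there, beside 6.93% and 1.74% of all genes. H1-2 lost that call when CPT replicate 1 or 2 or any CPT+GTA+5-Aza library was left out. CPT+GTA+5-Aza against Con, which shares libraries with both, called H1-10 higher and H4C16 and H2BC12 lower, beside 9.62% and 7.16% of all genes. In that comparison H2BC12 had a log2 fold change of -0.52 (adjusted p = 0.0281 in edgeR's test) and lost its call without Con replicate 1, Con replicate 3 or any 1 of the CPT+GTA+5-Aza libraries.

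CPT changed no histone gene at an adjusted p under 0.05. Cells given CPT alone, set against Con, had 0 called members in edgeR's test, beside 0% of all genes, and 0 in DESeq2 too. At an unadjusted P below 0.05, 2 members were higher and 0 lower, beside 1.85% and 2.43% of all genes. These were H2AC25 at 0.51 (SE 0.20, adjusted p = 1 by edgeR) and H1-5 at 0.91 (SE 0.44, adjusted p = 1 by edgeR). When CPT was added to primed cells, 0 members were called in edgeR's test, beside 0% of all genes, or in DESeq2. There 1 member was higher and 1 lower at an unadjusted P below 0.05, beside 1.09% and 1.62% of all genes. These were H2AC11 at 1.41 (SE 0.39, adjusted p = 1 by edgeR) and H4C16 at -2.44 (SE 0.84, adjusted p = 1 by edgeR). For H1-10 the 95% interval of the CPT effect was -0.14 to 0.31 in unprimed and -0.16 to 0.29 in primed cells.

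The priming effect with CPT was then tested against that without CPT as an interaction term. It passed for 0 of the 21 members in edgeR's test, beside 0% of all genes, and for 0 in DESeq2. At an unadjusted P below 0.05, 1 member was positive and 2 were negative, beside 1.33% and 1.31% of all genes. The positive one was H2AC11, described above, and the negative ones were H4C16 at -2.19 (SE 1.04, adjusted p = 1 by edgeR) and H2AC25 at -0.60 (SE 0.29, adjusted p = 1 by edgeR).

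Lists of genes that act with the histone genes had medians closer to 0. Of the 10 replacement variants, histones deposited outside S phase or at special sites, 2 rose and 1 fell in the averaged comparison, where 16.8% of all genes rose and 14% fell, with a median log2 fold change of 0.02. H2AX, the variant phosphorylated at DNA breaks, rose by 0.29 and H2AZ1 by 0.13, whereas H3-3B, 1 of the genes for H3.3, stood at -0.32 (adjusted p = 4.94e-05, 0.0134 and 1.13e-07 in edgeR's test). Of 18 genes of histone transcription and histone mRNA 3′ processing, 2 rose and 7 fell, beside those shares, with a median of -0.07. The cleavage scaffold gene SYMPK stood at -0.27, ERI1, an exonuclease of the histone mRNA end, at -0.33 and the cap-binding gene NCBP1 at -0.22, whereas its partner NCBP2 stood at 0.24 (adjusted p = 5.63e-05, 0.000148, 0.000567 and 0.000258 in edgeR's test). SLBP, named here for its role, fell at -0.16 (adjusted p = 0.0148 in edgeR's test), and NPAT, the coactivator at histone promoters, stood at -0.01 (adjusted p = 0.932 in edgeR's test). Of 19 histone chaperones, 2 rose and 7 fell, again beside 16.8% and 14%, with a median of -0.09. NAP1L1, ATRX and NAP1L4 stood at -0.37, -0.26 and -0.18 and ASF1B, an H3-H4 chaperone, at 0.38 (adjusted p = 1.15e-06, 0.000332, 0.000876 and 5.22e-06 in edgeR's test).

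Cell cycle genes were given beside them because histone mRNA follows S phase. Of 25 S phase genes, 3 rose and 10 fell, beside 16.8% and 14% of all genes, with a median of -0.04, and their summed level was 4620 to 4784 CPM in primed and 4708 to 4961 CPM in unprimed libraries. The cyclin gene CCNA2 stood at -0.34 and the uracil glycosylase gene UNG at -0.21, whereas the licensing gene CDT1 and the transcription factor gene E2F2 stood at 0.28 and 0.33 (adjusted p = 1.36e-06, 0.00262, 0.000118 and 0.00067 in edgeR's test). Of 16 mitosis genes, 2 rose and 12 fell, beside the same shares of all genes, with a median of -0.22, and their sum was 5284 to 5538 CPM in primed and 5768 to 6335 CPM in unprimed libraries. CCNB1, TPX2, AURKA and CENPE, all genes of mitotic entry or the spindle, stood at -0.40, -0.39, -0.36 and -0.47 (adjusted p = 2.4e-09, 6.77e-09, 1.04e-07 and 6.78e-07 in edgeR's test). The part of the cell cycle in the histone values was not tested.

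**Figure D4:**
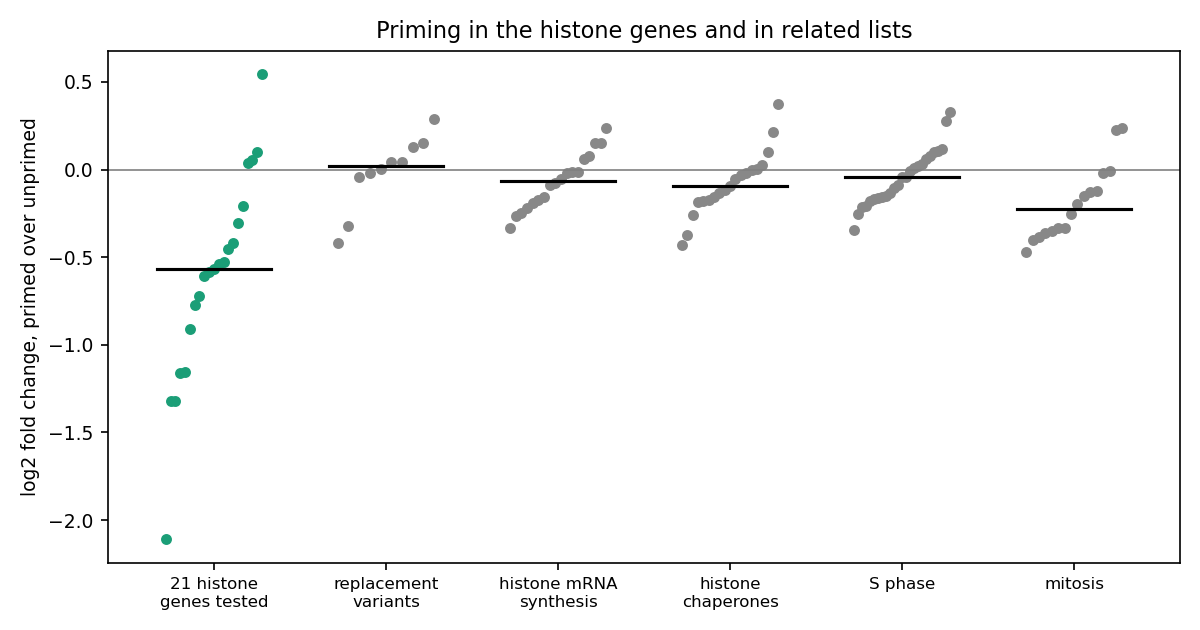
Log2 fold change of primed over unprimed cells, averaged over CPT, for each tested gene (points) of the histone genes and of 5 related lists, with the median of each list (lines). The histone genes spread from -2.11 to 0.54 around a median of -0.57, and the medians of the other lists lie between -0.22 and 0.02.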

How the data were processed

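The data were RNA-seq libraries of MiaPaca2 cells, 12 in all, with 3 in each of 4 groups taken from the sample labels. The authors deposited raw counts per gene, made with Trim Galore, HISAT2 2.2.1 (GRCh38) and HTSeq per the submitters' processing notes. The annotation release and the strand setting are not given in the sources used here. Symbols were matched by Ensembl identifier to GENCODE v44, which left 11496 of 63677 identifiers unmatched (99.047% of counts matched). The members and gene lists were chosen with earlier results of these data known.

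Counts were tested in R 4.3.3 with edgeR 4.0.16 (filterByExpr, TMM, quasi-likelihood test, 1 fit of all 12 libraries, 8 residual degrees of freedom), with Benjamini-Hochberg adjustment over all 17123 genes. CPM values use TMM-scaled library sizes. Named were members called in a comparison, the 3 most abundant members per class, each tested H1 gene, and up to 4 called genes per list. The values of 1 member are not reported here. On simulated counts for GTA+5-Aza against Con (17123 genes), 55.7% of 1.5-fold, 71.1% of 2-fold and 84.8% of 3-fold changes were called. The changed genes were drawn from all tested genes, and the simulated spread depended on level alone. Most tested histone members are scarce, so these rates do not describe them. Replicates of a group differed by 3.88 to 16.6 chi-square per degree of freedom, so no library repeats another. The highest value was that of CPT replicates 2 and 3. Nothing in the labels says that replicates were separate cultures beyond their numbers, and p-values measure the spread between these libraries. Alternatives were other scalings, filters and samples in the fit, a replicate block, a GC correction, DESeq2 1.42.0 and leaving out each library.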

Additional observations from a re-analysis of the deposited data

How the results depend on the processing

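H1-10, H2AC11, H2BC12 and H2AC25 were called in the averaged comparison under 20 of 20 alternatives and H4C16 under 19 of 19, whereas H2BC4 was called under 15 of 19, H2BC15 under 12 of 19 and H1-2 under 9 of 20. Genes with 19 alternatives were not tested under the filter of a mean of 1 CPM. The number of members lower in GTA+5-Aza against Con was 1, and 2 with the GC trend removed, with or without the replicate block, and 1 to 2 with a library left out, the added gene being H2BC12 (without Con replicate 2 or GTA+5-Aza replicate 2). In CPT+GTA+5-Aza against CPT 4 were lower, 2 with only the groups of the comparison in the fit (H4C16 and H1-2 lost) and 3 to 5 with a library left out. There H1-2 was also lost with library size alone, the replicate block or DESeq2. Under a filter of a mean of 1 CPM, H4C16 was not tested, as its mean was 0.661 CPM. H2AC20 was added there with the GC trend removed. In the averaged comparison 7 were lower, 4 with a filter of a mean of 1 CPM, which tests 10 members among 14660 genes, and 4 to 9 with a library left out. H1-2 was lost from these 7 with library size alone, the replicate block or DESeq2, and H2BC15 with the GC trend removed. In CPT+GTA+5-Aza against Con 2 were lower, 3 (H2AC11 added) with the GC trend removed, with or without the block, or with only the groups of the comparison, 1 with that filter and 1 to 2 with a library left out (1 without Con replicate 3 or CPT+GTA+5-Aza replicate 1, 2 or 3). Under that filter the H2B sum was 12.3 CPM in Con, 13.6 in CPT, 8.94 in GTA+5-Aza and 8.57 in CPT+GTA+5-Aza, and the H3 and H4 sums were 0 because no gene passed. The averaged value of H1-5 turned to -0.058 with the GC trend removed and to -0.084 with the replicate block added, and ran from -0.23 to 0.16 over all alternatives. Its negative values came without Con replicate 2 (-0.035), CPT replicate 3 (-0.077), GTA+5-Aza replicate 2 (-0.0058) or CPT+GTA+5-Aza replicate 2 (-0.23). That of H1-3 turned to -0.19 without CPT replicate 3 and to -0.28 without GTA+5-Aza replicate 1, and ran from -0.28 to 0.46 with a library left out. Neither gene was called in any of these. H3C13 was called lower in the averaged comparison without the filter, in DESeq2 and with 1 of 5 libraries left out, and in CPT+GTA+5-Aza against Con without Con replicate 1. Where a cause is not given, the cause was not tested.

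The replicate numbers did not pair the libraries: deviations of same-numbered libraries of different groups correlated at -0.377 to 0.42 over 18 pairs, and those of other libraries at -0.383 to 0.366. With the replicate number as a block, H1-2 lost its call in the averaged comparison (log2 fold change -0.51, adjusted p = 0.0629 in edgeR's test) and in CPT+GTA+5-Aza against CPT, and no other member's call changed in the comparisons run. In every class some listed members did not pass the filter on low counts, 18 of the 39 in all. The part of depth in this was not tested.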
